A study of Homo sapiens with 12 samples.

Results

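The response of LNCaP prostate cancer cells to full medium was compared between a Bag-1L knockout line and its control, and the genes whose response differed between the lines were determined. The contrast was a difference of differences: the log2 change from starved, vehicle-treated cells to full medium in the knockout, minus the same change in the control. It used 8 of the 12 samples of the series, 2 replicates in each of 4 groups, and the measurement was poly(A) RNA-seq. LNCaP is an established human prostate cancer line whose growth depends on androgen. Control (Ctr) cells carried a TALEN control and Bag-1L KO cells were made with a TALEN, an engineered nuclease, directed at the start codon of Bag-1L, with single clones isolated by serial dilution. How many clones stand behind each line is not given in the sources used here. Cells in FM are taken to have grown in RPMI medium with fetal bovine serum, the general culture medium of the study. Cells in EtOH were first starved for 72 h on charcoal-stripped serum, which is poor in steroids, and then received ethanol, the vehicle, for 16 h. Under that reading of FM the 2 conditions differed in androgen, other serum components, the vehicle, and phenol red, which the starvation medium lacked. These differences cannot be told apart. With 1 line per genotype, the loss of Bag-1L and other differences between the lines cannot be told apart either, and p-values measure only the spread between these samples.

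In prostate cells androgens raise genes such as the kallikreins and lower others. Bag-1L is the longest protein made from the BAG1 gene and the one that reaches the nucleus. It is a cochaperone of HSP70. Serum also carries growth factors, lipids and other steroids, so that a move from stripped to full medium is known to act on the cell cycle and on lipid synthesis as well as on androgen-regulated genes.

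The 5′ flanks of 5 genes described below are shown first, each as the 250 bases before a RefSeq transcription start. Coordinates are of build GRCh38.p14, and sequences run 5′ to 3′ on the gene's strand. KLK3, which encodes prostate-specific antigen, is shown because it was the only 1 of 8 androgen-induced genes past the test with a window in which AGAACA, the core of a steroid response element, was found. Its window was chr19:50854665-50854914, plus strand, and capitals mark this core, which starts 170 bases before the transcript.
KLK3: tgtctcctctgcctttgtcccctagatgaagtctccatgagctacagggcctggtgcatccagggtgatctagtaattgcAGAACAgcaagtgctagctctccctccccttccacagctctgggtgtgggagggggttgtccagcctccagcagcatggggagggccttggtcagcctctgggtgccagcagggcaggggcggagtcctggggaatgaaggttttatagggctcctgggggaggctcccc
CDC20 (chr1:43358731-43358980, plus strand) is shown for the mitotic genes. Capitals mark TTTGAA, the core of the cell cycle genes homology region, and the CCAAT box, on either strand.
CDC20: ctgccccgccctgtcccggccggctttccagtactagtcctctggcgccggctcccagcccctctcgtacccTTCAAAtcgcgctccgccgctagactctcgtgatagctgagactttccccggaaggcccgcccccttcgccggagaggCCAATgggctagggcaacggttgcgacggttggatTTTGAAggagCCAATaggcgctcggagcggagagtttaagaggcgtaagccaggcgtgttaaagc
MYBL2 (chr20:43666864-43667113, plus strand) is shown for its E2F site core, GGCGGGA, in capitals 39 bases before the transcript.
MYBL2: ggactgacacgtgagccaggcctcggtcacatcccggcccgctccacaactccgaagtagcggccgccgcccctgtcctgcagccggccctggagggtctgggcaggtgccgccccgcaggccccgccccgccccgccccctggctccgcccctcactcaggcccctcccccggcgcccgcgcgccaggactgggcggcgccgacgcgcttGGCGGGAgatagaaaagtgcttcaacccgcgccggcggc
UGT2B11 (chr4:69214749-69214998, minus strand) and UGT2B15 (chr4:68670653-68670902, minus strand) belong to a family of related genes, 4 of which passed the test with a smaller rise in KO. Capitals mark the longest run their windows share, of 25 bases.
UGT2B11: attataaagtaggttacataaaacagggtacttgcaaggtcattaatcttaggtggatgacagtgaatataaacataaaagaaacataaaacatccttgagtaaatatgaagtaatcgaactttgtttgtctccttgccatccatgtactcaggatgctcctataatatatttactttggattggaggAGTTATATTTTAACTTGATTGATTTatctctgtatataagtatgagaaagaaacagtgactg
UGT2B15: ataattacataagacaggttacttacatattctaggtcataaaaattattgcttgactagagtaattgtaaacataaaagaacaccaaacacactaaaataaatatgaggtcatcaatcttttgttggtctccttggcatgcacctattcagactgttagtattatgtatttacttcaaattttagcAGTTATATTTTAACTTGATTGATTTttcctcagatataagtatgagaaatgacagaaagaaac
Searched on both strands, AGAACA was present in 12.4% of 34943 such windows of all genes, TTTGAA in 13.4%, CCAAT in 32.0% and GGCGGGA in 13.5%. Among the androgen-induced genes listed below, 2 of 31 with a window held AGAACA. Among the mitotic genes 18 of 33 held TTTGAA and 27 of 33 held CCAAT, and among the replication genes 17 of 33 held GGCGGGA. MYBL2 is on the mitotic list, where 8 of 33 held GGCGGGA. Of 3 mitotic genes past the test with a window, 1 held TTTGAA, 2 held CCAAT and 1 held GGCGGGA. The 1 replication gene past the test held no GGCGGGA in its window. A match is a description of these letters and not a measured binding site.

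Gene counts per sample were between 20826843 and 26510205. The replicates of control EtOH lay apart: over 11357 genes their log2 levels differed by a median of 0.238 in size, against 0.077 to 0.084 in the other groups. No pair of replicates differed by counting error alone, since the chi-square per degree of freedom between them was between 2.4 and 22.82. This cannot tell whether they came from separate cultures. Mitochondrially encoded transcripts took 1.94% to 3.1% of the counts in FM and 3.56% to 4.76% in EtOH. All 13 luminal prostate markers exceeded a CPM of 1 (gene counts scaled to a common library total), and their summed level was 3670 to 4400 CPM in EtOH and 5620 to 7590 CPM in FM. Over 1 CPM were 3 of 7 basal, 3 of 8 neuroendocrine, 4 of 8 fibroblast, 1 of 4 endothelial and 1 of 6 leukocyte markers. The highest summed levels of these 5 lists in any sample were 32.3, 20.3, 51.5, 10.1 and 1.21 CPM, and no marker was at 0 in all samples. Summed neuroendocrine markers were 9.51 to 11.4 CPM in control EtOH, 3.7 to 4.85 in control FM, 19.4 to 20.3 in KO EtOH and 6.58 to 6.63 in KO FM, and their part in the results below was not tested.

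BAG1 (ENSG00000107262, chr9:33247818-33264718, minus strand, GRCh37 as for all genes below) was examined first, because it is the targeted gene. Normalized counts, scaled for depth by DESeq2, were 1669 and 2665 in control EtOH, 2074 and 1929 in control FM, 1161 and 1077 in KO EtOH, and 1419 and 1539 in KO FM. Both KO EtOH samples lay below both control EtOH samples. The log2 FM response was -0.115 in control and 0.40 in KO, and their difference missed the threshold, at 0.52 (standard error 0.26, adjusted p = 0.326). The control EtOH replicates lay apart: the difference passed at 0.82 (DESeq2 adjusted p = 2.44e-08) without replicate 1 and was 0.15 (adjusted p = 0.713) without replicate 2. These counts cover every transcript of the gene, and Bag-1L differs from the shorter forms by its start codon, so they do not check the loss of the protein.

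The FM response differed between the lines in 145 of 12608 genes tested (1.15%), at an adjusted p of at most 0.05 and a fold difference of at least 1.5. The log2 response was larger in KO, meaning higher or less negative, in 76 genes (0.603%) and smaller in 69 (0.547%). In comparison, FM changed 3819 genes in control (22.0% of those tested) and 3417 in KO (18.7%). Among the 76 genes, 30 rose with FM in both lines and rose further in KO, 29 passed as rises in KO only, 12 passed as falls in control only, 2 fell in both lines, and 3 passed in neither. Among the 69, 20 fell in both lines and fell further in KO, 22 passed as falls in KO only, 9 passed as rises in control only, 8 rose in both lines and rose less in KO, 9 passed in neither, and ADGRG6 rose in control and fell in KO. The median log2 response of the 76 genes was 0.36 in control and 1.36 in KO, and that of the 69 was 0.03 and -0.80. These medians describe genes selected by this same difference.

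**Figure D1:**
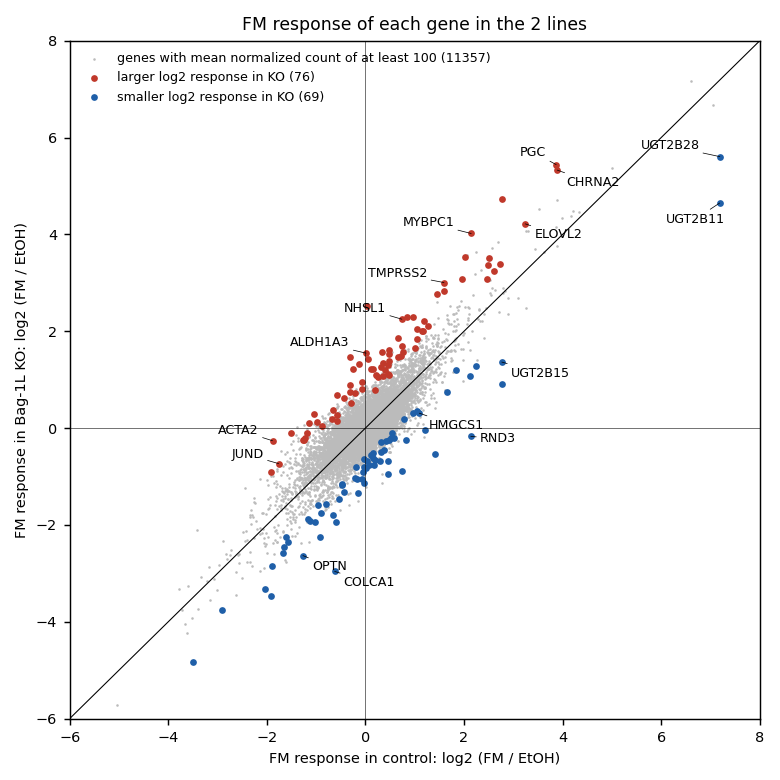
Log2 change from EtOH to FM in control (x axis) and in Bag-1L KO (y axis) for 11357 genes whose normalized count averaged 100 or more (grey), with the 76 genes of larger (red) and 69 of smaller (blue) log2 response in KO; the diagonal marks equal responses. Most blue points lie below the horizontal zero line and most red points above it, with UGT2B11, UGT2B28 and other raised genes among the blue points at the upper right.

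The number of these genes rested on the tool and on single libraries. edgeR's quasi-likelihood test called 32 genes (0.131% of those it tested), all among the 145. When replicate 1 of control EtOH was omitted 2192 genes passed, and without replicate 2 there were 130, of which 99 were among the 145. Leaving out replicate 1 or 2 of control FM left 45 or 24 genes. The same for KO EtOH left 38 or 30, and for KO FM 37 or 31. Each of these 8 fits leaves a group with 1 sample, which is assumed to vary like the other groups. In 19 genes, listed here for that reason after their values were seen, the call held under each of 19 alternatives, which comprised 8 fits that left out 1 library, 3 that removed trends with GC content or length, and 8 that changed the tool, filter, scaling, samples, block or fold minimum. Those of larger response in KO included ALDH1A3, ENSG00000261061, NHSL1, CHRNA2, TMPRSS2, DLX1, TRPM8, CENPN, ST6GALNAC1, FAM110B and ELOVL2, and the 7 of smaller response were UGT2B11, COLCA1, UGT2B15, CFAP69, TULP4, SLC12A2 and MME. RND3 and TNFAIP3 passed in all 18 alternatives in which DESeq2 or edgeR gave them an adjusted p. The alternative without a fold minimum reused the main fit and could lose no call, so these tallies include 1 pass by construction. ENSG00000261061 lies entirely within exons of CENPN on the same strand and is not an independent gene here.

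The difference followed the GC content of the transcripts. Across 11209 genes averaging 100 normalized counts or more, Spearman's correlation between GC content and the difference was 0.485. It was -0.401 for the control response and -0.094 for the KO response, and 0.088 for KO minus control in EtOH against 0.558 in FM. The value in EtOH was -0.102 without replicate 1 of control EtOH and 0.336 without replicate 2. In 10 bins of equal size, the median difference rose from -0.19 in the lowest bin (median GC content 38.3%) to 0.36 in the highest (63.7%). The highest bin was at 0.54 without replicate 1 of control EtOH and 0.18 without replicate 2. The 76 genes of larger response had a median GC content of 57.1% and the 69 of smaller response 42.9%, where all genes tested had 49.2%. Each library was also set against the mean of the 8. The correlation was -0.367 and -0.524 in the control FM libraries, 0.066 and 0.169 in KO FM. In the EtOH libraries it was -0.056 and 0.342 for control and 0.238 and 0.232 for KO. Control FM was thus the group relatively low in GC-rich transcripts, and its 2 libraries lay on the same side. The part of this trend in the result for a single gene was not tested. When a smooth GC trend was removed from each library, the correlation became -0.023 and 129 genes passed (1.06%), of which 98 were among the 145. Of the 76 genes 44 still passed and of the 69 genes 54, with differences at a median 83.4% and 90.4% of their former size. Values with the GC trend removed are given below beside many of the genes.

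**Figure D2:**
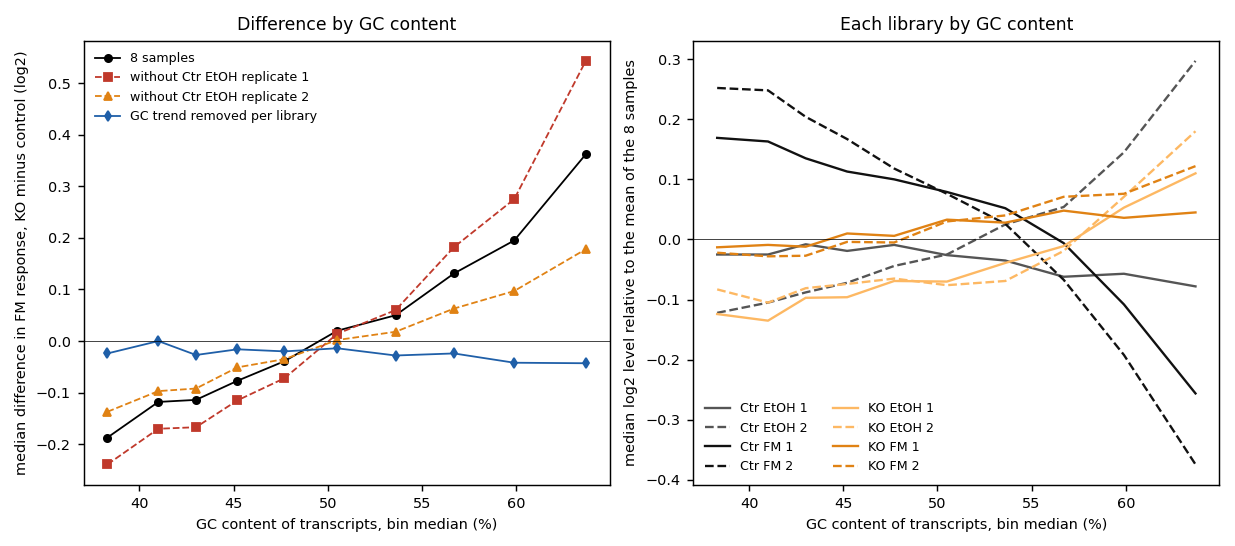
Left, median difference in log2 FM response (KO minus control) in 10 bins of GC content for the 8 samples, without either control EtOH library and with the GC trend removed from each library; right, median log2 level of each library relative to the mean of the 8, in the same bins. The difference climbs from -0.19 to 0.36 with GC content, and the control FM libraries fall below the others in the bins richest in GC.

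Among the 19 gene lists, the androgen-induced genes had the highest number past the test with a larger KO response. Of 40 listed, 37 were tested and 10 passed (27.03%, beside 1.15% of all genes tested), all with a larger response in KO. Among them were PGC, ALDH1A3, TMPRSS2, TRPM8, CENPN, PMEPA1, SPDEF, KLK3 and SLC45A3. FM raised 32 of the listed genes in control and 34 in KO, beside 1560 and 1523 of all 12608 genes tested. The median difference of the list was 0.23, beside 0.02 for all genes tested, and 0.17 with the GC trend removed, when 8 passed. With edgeR 6 passed. TMPRSS2 (ENSG00000184012, chr21:42836227-42903043, minus strand), a surface serine protease whose gene is a classical androgen target, had normalized counts of 1134 and 1303 in control EtOH, 3669 and 3682 in control FM, 835 and 785 in KO EtOH, and 6122 and 6883 in KO FM. The KO samples were the lowest in EtOH and the highest in FM, and no 2 groups overlapped. The log2 response was 1.59 in control and 3.005 in KO. They differed by 1.41 (standard error 0.18, adjusted p = 5.94e-12), and by 1.33 (adjusted p = 1.28e-12) with the GC trend removed. ALDH1A3, which makes retinoic acid from retinal, had counts of 358 and 375 in control EtOH, 359 and 379 in control FM, 234 and 238 in KO EtOH, and 682 and 697 in KO FM. Only the KO response passed, and the difference was 1.53 (standard error 0.22, adjusted p = 8.79e-09). An antisense gene covers 32.1% of its exon bases, and the strand setting of the counting is not given in the sources used here.

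TRPM8, a cold-sensing calcium channel of prostate epithelium, had counts of 262 and 261 in control EtOH, 792 and 795 in control FM, 240.2 and 267 in KO EtOH, and 1834 and 1769.8 in KO FM. The 4 EtOH values were alike in both lines, so that its difference of 1.23 (standard error 0.20, adjusted p = 1.24e-06) lay in FM. PGC, the pepsinogen progastricsin, had counts of 24.3 and 50 in control EtOH, 525 and 556 in control FM, 18.7 and 17.5 in KO EtOH, and 776 and 792 in KO FM. Its control EtOH replicates lay apart, and the difference was 1.57 (standard error 0.39, adjusted p = 0.0086). The call was lost without replicate 2 of control EtOH or any 1 library of control FM, KO EtOH or KO FM (range 0.97 to 2.01).

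KLK3, whose 5′ flank is shown above, had counts of 5253 and 6996 in control EtOH, 10186 and 9971 in control FM, 7649 and 7369.9 in KO EtOH, and 19661 and 22631 in KO FM. Both KO FM values were higher than those of the other 6 samples, the highest of which was 10186. The log2 response was 0.72 in control and 1.49 in KO. The lines differed by 0.775 (standard error 0.20, adjusted p = 0.0151), and by 0.64 (adjusted p = 0.0234) with the GC trend removed. KLK3 passed in 10 of the 19 alternatives, with an edgeR adjusted p of 0.141, and lost its call without replicate 2 of control EtOH or any 1 library of control FM, KO EtOH or KO FM (range 0.56 to 0.97). The neighbouring kallikrein KLK2, which did not pass, had 4382.5 and 5824 in control EtOH, 15701 and 15084.5 in control FM, 7209 and 7135.5 in KO EtOH, and 23992 and 26176 in KO FM and a difference of 0.21 (standard error 0.19, adjusted p = 0.632). FKBP5, an immunophilin and androgen target, rose in both lines, with responses of 3.62 in control and 3.64 in KO that differed by 0.02 (standard error 0.15, adjusted p = 0.963). KLK2 and FKBP5 were chosen for mention after their values were seen, as were PMEPA1, CENPN, SLC45A3 and SPDEF. PMEPA1, an inhibitor of TGF-beta signalling, differed by 0.84 (adjusted p = 7.03e-05) and CENPN, a centromere protein, by 1.12 (adjusted p = 6.48e-07), and both passed with the GC trend removed. SLC45A3, also known as prostein, differed by 0.63 (adjusted p = 0.00463) and SPDEF, an ETS transcription factor with 64.6% GC, by 0.815 (adjusted p = 0.026). With the GC trend removed SLC45A3 was at 0.48 (adjusted p = 0.0969) and SPDEF at 0.36 (adjusted p = 0.313), and neither passed. PMEPA1 lost its call without replicate 1 of control FM or replicate 2 of KO FM (range 0.79 to 0.885), SLC45A3 without any 1 library of control FM, KO EtOH or KO FM (range 0.60 to 0.68), and SPDEF without replicate 2 of control EtOH or any 1 library of control FM, KO EtOH or KO FM (range 0.52 to 1.07).

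The luminal marker list, which shares members with the androgen-induced list, had 5 of 13 past the test (38.46%, beside 1.15% of all genes tested). Among them were KLK3, SLC45A3 and TMPRSS2 with a larger response in KO and STEAP2, a metalloreductase, with a smaller one. STEAP2 had 7587 and 5629 in control EtOH, 8958 and 9893 in control FM, 12805 and 13258 in KO EtOH, and 11682 and 10868 in KO FM and a difference of -0.72 (standard error 0.20, adjusted p = 0.0339). The control EtOH replicates of STEAP2 differed by more than those of any other group, and with the GC trend removed it no longer passed, at -0.59 (adjusted p = 0.0528). Its call was also lost without replicate 2 of control EtOH or any 1 library of control FM, KO EtOH or KO FM (range -0.95 to -0.52).

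**Figure D3:**
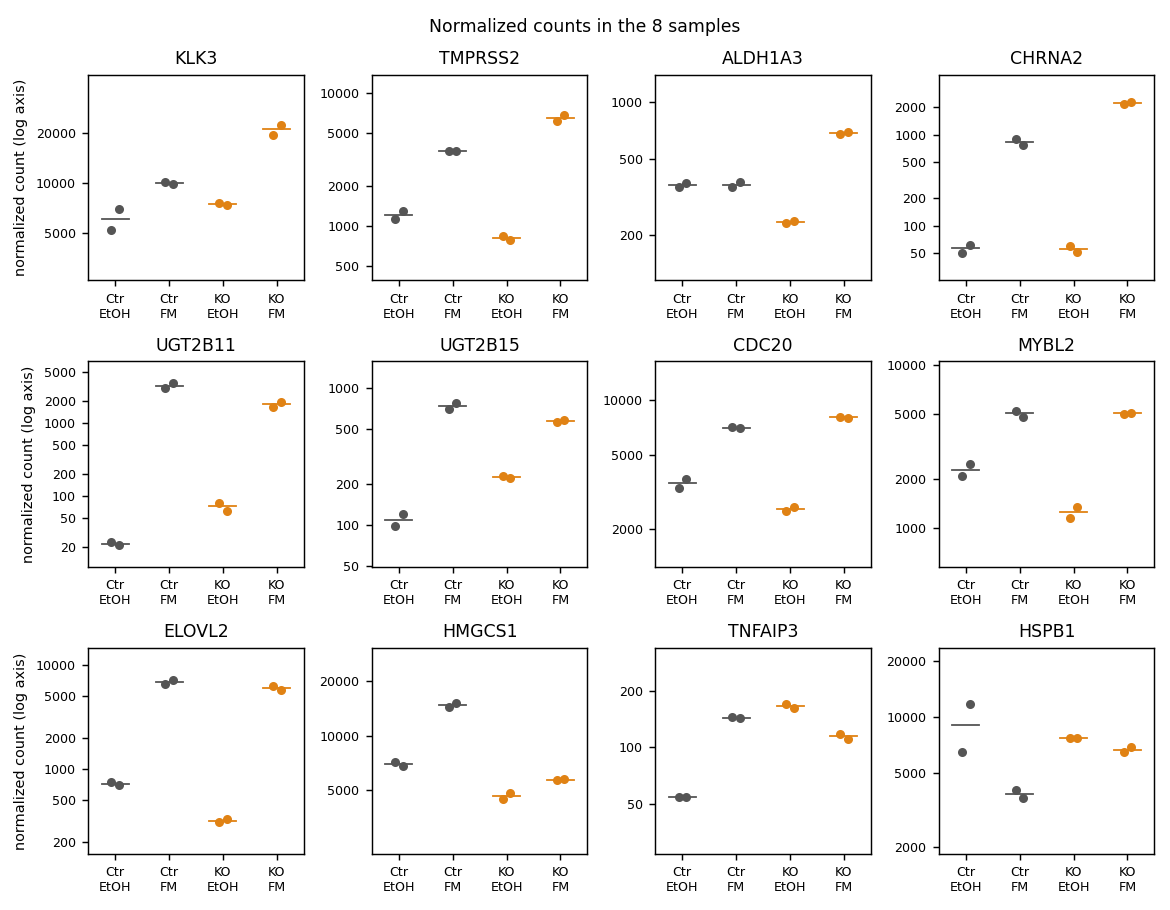
Normalized counts (log axis) of 12 genes in the 8 samples; points are replicates, horizontal bars are means, control is grey and Bag-1L KO orange. TMPRSS2 and CHRNA2 reach their highest values in KO FM, UGT2B11 starts higher and ends lower in KO, CDC20 and MYBL2 differ most in EtOH, and HSPB1 has control EtOH replicates of 6493 and 11708.

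Of 22 genes listed as androgen-repressed 16 were tested and 7 passed (43.75%, beside 1.15% of all genes tested), 3 of them with edgeR. Of these 7, 6 had a smaller response in KO (UGT2B11, UGT2B28, PLPPR1, UGT2B15, UGT2B17 and BCHE), and CHRNA2 had a larger one. The list's median difference was -0.81, beside 0.02 for all genes tested. With the GC trend removed it was -0.68, and 2 passed with a larger and 3 with a smaller response. Not all of these genes fell with FM: 9 of the list rose and 6 fell in control. Of all 12608 genes tested 1560 rose and 1690 fell in control. The UGT2B enzymes, some of which attach glucuronic acid to androgens and so inactivate them, rose in both lines. UGT2B11 (ENSG00000213759, chr4:70065669-70080466, minus strand) had counts of 23.3 and 21.6 in control EtOH, 3042 and 3502.5 in control FM, 81.5 and 63.4 in KO EtOH, and 1651 and 1960.2 in KO FM. It started higher in KO EtOH and ended lower in KO FM, and no groups overlapped. The log2 response was 7.19 in control and 4.65 in KO. They differed by -2.54 (standard error 0.32, adjusted p = 5.94e-12), the most negative value among all genes tested.

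UGT2B15 had 99.0 and 119.7 in control EtOH, 699.9 and 785 in control FM, 229 and 221 in KO EtOH, and 570.3 and 586 in KO FM, again with the KO samples higher in EtOH and lower in FM, and a difference of -1.40 (standard error 0.25, adjusted p = 1.05e-05). UGT2B28 had 10.3 and 8.8 in control EtOH, 1238 and 1555 in control FM, 20.9 and 21.1 in KO EtOH, and 958 and 1093.5 in KO FM. Its difference of -1.58 (standard error 0.455, adjusted p = 0.0447) rested on control EtOH counts of 10.3 and 8.8, and it was called in 5 of the 18 alternatives that gave an adjusted p and not with the GC trend removed, at -1.44 (adjusted p = 0.0805). UGT2B17 differed by -0.97 (adjusted p = 0.0298), and by -0.90 (adjusted p = 0.051) with the GC trend removed. The call of UGT2B28 was lost without replicate 2 of control EtOH or any 1 library of control FM, KO EtOH or KO FM (range -1.74 to -1.41) and that of UGT2B17 without any 1 library of control FM, KO EtOH or KO FM (range -1.07 to -0.88). These 4 genes are much alike: 36.1% of the 50-base words of UGT2B11 transcripts, 34.3% of those of UGT2B28, 27.1% of those of UGT2B15 and 22.1% of those of UGT2B17 also occur in transcripts of other genes, mostly of the same family. HTSeq by default leaves out reads with several alignments, so these levels are uncertain, and the 4 are not independent observations.

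The other genes of the androgen-repressed list that passed the test moved apart. CHRNA2, a nicotinic acetylcholine receptor subunit, rose steeply with FM in both lines, with counts of 50.4 and 61.8 in control EtOH, 890.3 and 771 in control FM, 59.5 and 51.5 in KO EtOH, and 2152 and 2287 in KO FM. The KO FM values exceeded the control FM values more than 2-fold while EtOH overlapped, and the difference was 1.44 (standard error 0.28, adjusted p = 0.000121). PLPPR1 and BCHE, like UGT2B17, were chosen for mention after their values were seen. PLPPR1, a membrane protein of neurons, fell with FM in both lines and further in KO, from a higher EtOH level, with a difference of -1.32 (adjusted p = 0.00968). BCHE, butyrylcholinesterase, had 703 and 631 in control EtOH, 211 and 208 in control FM, 1237 and 1190.3 in KO EtOH, and 187 and 221.5 in KO FM. Its FM values overlapped between the lines and its KO EtOH values were the highest, for a difference of -0.90 (adjusted p = 0.00989). With the GC trend removed BCHE, of 37.7% GC, was at -0.74 (adjusted p = 0.0517). PLPPR1 lost its call without any 1 library of control FM, KO EtOH or KO FM (range -1.50 to -1.15) and BCHE without any 1 library of control FM, KO EtOH or KO FM (range -1.03 to -0.78).

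Most cell cycle genes rose with FM in both lines, and their median level in EtOH was lower in KO. Of 40 mitotic and G2/M genes, all tested, 34 rose in control and 40 in KO. Of all 12608 genes tested 1560 rose in control and 1523 in KO. CDC20, AURKB, UBE2C and MYBL2 passed the test of the difference (10.0%, beside 1.15% of all genes tested), each with a larger response in KO. Of 39 replication and G1/S genes tested 35 rose in control and 38 in KO, and TK1 passed (2.56%). The median difference was 0.34 for the mitotic and 0.32 for the replication genes, and 36 members of each list were above 0. Among all 12608 genes tested the median difference was 0.02 and 6559 were above 0. KO minus control had a median of -0.53 in EtOH and -0.12 in FM for the mitotic genes, and -0.55 and -0.17 for the replication genes. The mitotic genes were not rich in GC (median 45.1%), and with the GC trend removed their median difference was 0.43 and 7 passed. In bulk samples fewer cells of a type, here cycling cells, and less RNA per cell cannot be told apart.

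CDC20, an activator of the anaphase-promoting complex (ENSG00000117399, chr1:43824652-43828874, plus strand), had counts of 3321 and 3732 in control EtOH, 7103 and 7065 in control FM, 2478 and 2604 in KO EtOH, and 8105 and 7970.3 in KO FM. Both KO EtOH values were below both control EtOH values, both KO FM values above both control FM values, and the difference was 0.655 (standard error 0.16, adjusted p = 0.00661). With the GC trend removed it was 0.495 (adjusted p = 0.0435), below the fold minimum. MYBL2, a transcription factor of the late cell cycle, had 2088 and 2477 in control EtOH, 5249.9 and 4828 in control FM, 1161 and 1340.2 in KO EtOH, and 5005 and 5075 in KO FM. Its FM values were alike in the lines and the difference of 0.87 (standard error 0.185, adjusted p = 0.000978) lay in EtOH. TK1, thymidine kinase, had 2880.3 and 4336 in control EtOH, 5332 and 4742 in control FM, 2047 and 2098.5 in KO EtOH, and 5794.5 and 6120.3 in KO FM and a difference of 1.04 (standard error 0.23, adjusted p = 0.00222). Its control EtOH replicates lay further apart than those of the other groups. AURKB, the chromosomal passenger kinase, differed by 0.945 (adjusted p = 0.00927) and UBE2C, the ubiquitin-conjugating partner of the anaphase-promoting complex, by 0.90 (adjusted p = 0.00926). None of these 5 passed with edgeR, whose adjusted p was between 0.0656 and 0.129. The call of CDC20 was lost without replicate 2 of control EtOH or any 1 library of control FM, KO EtOH or KO FM (range 0.57 to 0.74), that of AURKB without any 1 library of control FM, KO EtOH or KO FM (range 0.675 to 1.18), and that of UBE2C without any 1 library of control FM, KO EtOH or KO FM (range 0.64 to 1.12). MYBL2 lost it without replicate 2 of control FM, replicate 1 of KO EtOH or any 1 library of KO FM (range 0.74 to 0.99) and TK1 without replicate 2 of control FM, replicate 2 of KO FM or any 1 library of KO EtOH (range 0.72 to 1.31).

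Lipid genes went in both directions. Of 18 fatty acid synthesis genes tested, ELOVL2 and ELOVL7 had a larger and ACSL4 a smaller response in KO. They were 16.67% of those tested, beside 1.15% of all genes tested. ELOVL2 elongates polyunsaturated fatty acids and had counts of 747 and 696 in control EtOH, 6510.2 and 7155 in control FM, 309.6 and 329 in KO EtOH, and 6163.5 and 5720.1 in KO FM. Its KO EtOH values were less than the control EtOH values while FM differed little, and the difference was 0.97 (standard error 0.18, adjusted p = 2.97e-05) and 1.12 (adjusted p = 7.49e-09) with the GC trend removed. ELOVL7, an elongase of saturated fatty acids, had 798 and 774 in control EtOH, 4989 and 5451 in control FM, 712 and 812 in KO EtOH, and 8239.9 and 7744.5 in KO FM. Here EtOH overlapped and KO FM was the highest group, and the difference was 0.66 (standard error 0.17, adjusted p = 0.0187), which was lost without any 1 library of control FM, KO EtOH or KO FM (range 0.57 to 0.76). ACSL4, which activates arachidonic acid, had 414.5 and 309 in control EtOH, 482.5 and 514 in control FM, 632 and 683 in KO EtOH, and 395 and 420.5 in KO FM and a difference of -1.15 (standard error 0.24, adjusted p = 0.000776), lost without replicate 2 of control FM, replicate 2 of KO EtOH or replicate 1 of KO FM (range -1.38 to -0.95).

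Of 27 cholesterol synthesis genes tested, HMGCS1 alone passed (3.7%, beside 1.15% of all genes tested). The list's median difference was -0.06, and 0.07 without replicate 1 of control EtOH. HMGCS1 makes HMG-CoA, the substrate of the rate-limiting step. Its counts were 7103 and 6802 in control EtOH, 14396.5 and 15266 in control FM, 4423 and 4778 in KO EtOH, and 5646 and 5736 in KO FM, which placed both KO groups below both control groups. FM raised it by a log2 value of 1.09 in control, past the test, and by 0.31 in KO, which did not pass. The difference was -0.79 (standard error 0.15, adjusted p = 0.000112), and it was lost without replicate 2 of control FM or replicate 2 of KO EtOH (range -0.84 to -0.72). An antisense gene covers 37.7% of the exon bases of HMGCS1, and the strand setting of the counting is not given in the sources used here.

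In the NF-kB list 2 of 18 genes tested passed (11.11%, beside 1.15% of all genes tested). They were TNFAIP3 and NFKBIA, both negative regulators of NF-kB that are also its targets. TNFAIP3, a ubiquitin-editing enzyme, had 54.2 and 53.9 in control EtOH, 145 and 143 in control FM, 169.7 and 163 in KO EtOH, and 117.5 and 111 in KO FM. FM raised it in control, whereas in KO the EtOH values were the highest of the 4 groups, and the difference was -1.95 (standard error 0.35, adjusted p = 1.89e-05). NFKBIA, the inhibitor IkB-alpha, had 926 and 1081 in control EtOH, 1918 and 2018 in control FM, 2083 and 1840.2 in KO EtOH, and 2382.5 and 2452 in KO FM and a difference of -0.67 (standard error 0.18, adjusted p = 0.0275). TNFAIP3 passed in all 18 alternatives that gave it an adjusted p, and without replicate 2 of control EtOH, where DESeq2 gave none, its difference was -1.94. The call of NFKBIA was lost without replicate 1 of control EtOH or any 1 library of control FM, KO EtOH or KO FM (range -0.78 to -0.56).

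Chaperone and growth factor signalling genes contributed single members. Of 33 heat shock and BAG family genes tested, HSPB1, a small heat shock protein, passed, and the median difference was 0.00. The shares past the test were 3.03% here, 5.26% in the immediate early and 3.45% in the endoplasmic reticulum list, beside 1.15% of all genes tested. HSPB1 had 6493 and 11708 in control EtOH, 4059 and 3692 in control FM, 7738 and 7762 in KO EtOH, and 6482 and 6875 in KO FM. Its GC content was 65.4%, the control EtOH replicates lay far apart, and the difference of 1.02 (standard error 0.28, adjusted p = 0.026) became 0.505 (adjusted p = 0.179) with the GC trend removed. Among 19 immediate early genes tested JUND, an AP-1 subunit with 69.9% GC, went from 1.025 (standard error 0.27, adjusted p = 0.0224) to 0.37 (adjusted p = 0.439) in the same way. Among 29 endoplasmic reticulum folding genes PDIA4, a disulfide isomerase, passed at 0.60 (adjusted p = 0.0111). It was below the fold minimum at 0.53 (adjusted p = 0.013) with the GC trend removed. Of the 29 differences 26 were above 0 (median 0.24, 0.285 with the GC trend removed), beside 6559 of 12608 over all genes tested. The call of HSPB1 was lost without replicate 2 of control EtOH or any 1 library of control FM, KO EtOH or KO FM (range 0.535 to 1.38), that of JUND without any 1 library of control FM, KO EtOH or KO FM (range 0.635 to 1.34), and that of PDIA4 without replicate 2 of control EtOH or any 1 library of control FM, KO EtOH or KO FM (range 0.53 to 0.67).

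In the insulin and FOXO list 3 of 24 passed (12.5%, beside 1.15% of all genes tested). IGFBP2, an IGF-binding protein, fell in control and had 3370.5 and 5276 in control EtOH, 2472 and 2247 in control FM, 4621.5 and 4525 in KO EtOH, and 4459 and 4965 in KO FM, a difference of 0.92 (standard error 0.24, adjusted p = 0.0214). PIK3R1, the regulatory subunit of PI3K, fell in both lines and further in KO, with 2029 and 1843 in control EtOH, 1104.5 and 1114 in control FM, 2506 and 2449.6 in KO EtOH, and 833 and 839 in KO FM and a difference of -0.765 (standard error 0.17, adjusted p = 0.00197). FOXO3, a transcription factor held back by insulin signalling, differed by -0.60 (adjusted p = 0.0253), but 36.0% of its 50-base words are shared, almost all with FOXO3B. IGFBP2 lost its call without replicate 2 of control EtOH or any 1 library of control FM, KO EtOH or KO FM (range 0.56 to 1.21), PIK3R1 without any 1 library of control FM, KO EtOH or KO FM (range -0.83 to -0.69), and FOXO3 without replicate 2 of control EtOH or any 1 library of control FM, KO EtOH or KO FM (range -0.69 to -0.50).

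**Figure D4:**
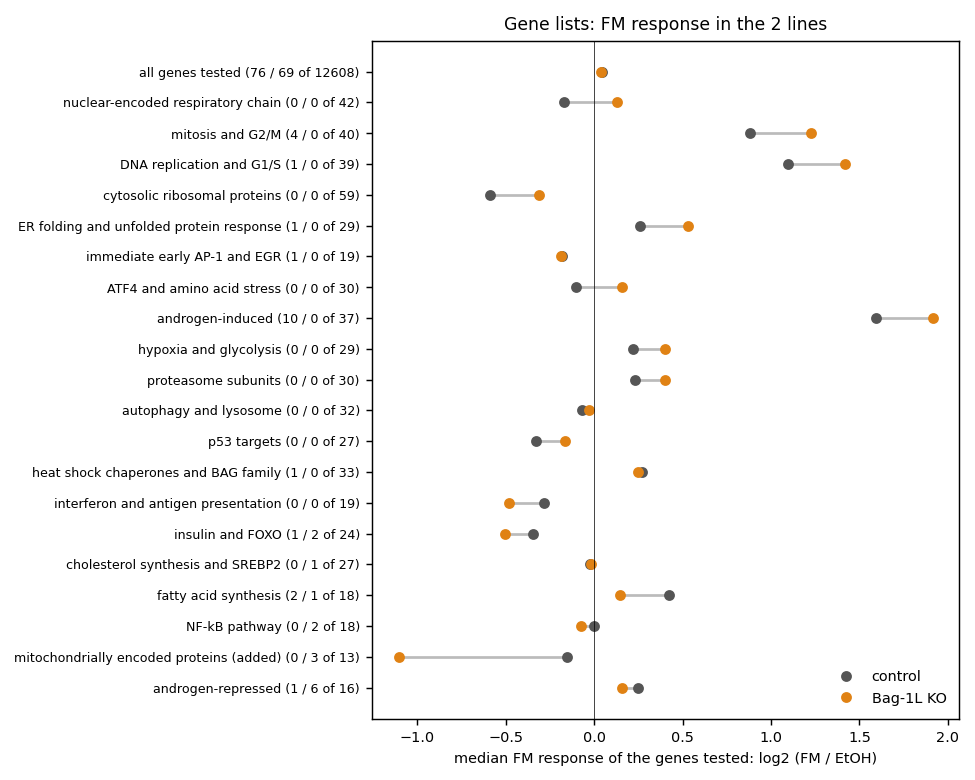
Median log2 FM response of the genes tested in each list, in control (grey) and Bag-1L KO (orange), with the members of larger and smaller response in KO out of those tested in parentheses. The androgen-induced and cell cycle lists have the highest medians in both lines and lie further right in KO, and the mitochondrially encoded list, which was added after its values were seen, goes from -0.15 in control to -1.10 in KO.

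Beyond these groups, and among genes averaging 100 normalized counts or more, the most positive differences, which join steeper rises in KO with falls that were smaller or absent, were found in TBX15, MYBPC1, ACTA2, PGC, ALDH1A3, NHSL1, NRGN, PART1, MT2A and CHRNA2. MYBPC1, a myosin-binding protein, had 50.4 and 54.9 in control EtOH, 227 and 238 in control FM, 31.9 and 25.7 in KO EtOH, and 430.0 and 499.7 in KO FM and a difference of 1.87 (standard error 0.36, adjusted p = 0.000111). NHSL1, a regulator of the actin cytoskeleton, had 312 and 323 in control EtOH, 557 and 502 in control FM, 658 and 661 in KO EtOH, and 3229.8 and 3032 in KO FM, where KO exceeded control in both conditions and most in FM, and differed by 1.51 (standard error 0.19, adjusted p = 5.94e-12). MT2A, a metallothionein that binds zinc and copper, had 743 and 1343 in control EtOH, 1029.9 and 882 in control FM, 831 and 739 in KO EtOH, and 1964 and 1958 in KO FM. Its KO FM values stood above all others, and the difference was 1.45 (standard error 0.29, adjusted p = 0.000405), with an edgeR adjusted p of 0.103. ACTA2, smooth muscle actin and also on the fibroblast list, fell with FM in control from a higher EtOH level, with 367 and 363 in control EtOH, 96.3 and 101 in control FM, 76.0 and 48.7 in KO EtOH, and 53.8 and 49.2 in KO FM and a difference of 1.625 (standard error 0.37, adjusted p = 0.00352). The summed level of the 8 fibroblast markers, ACTA2 included, was 45.2 to 51.5 CPM in control EtOH, 22.9 to 23.5 in control FM, 35.0 to 36.4 in KO EtOH and 20.5 to 22.3 in KO FM, and the part of the other markers in this result was not tested. Opposite-strand genes cover 35.9% of the exon bases of ACTA2.

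TBX15, a T-box transcription factor, rested on KO EtOH counts of 7.7 and 6.4 and differed by 1.96 (standard error 0.55, adjusted p = 0.0341). NRGN, a calmodulin-binding protein, differed by 1.45 (adjusted p = 0.00926) and had 63.7% GC, and was at 1.06 (adjusted p = 0.0689) with the GC trend removed. PART1, a prostate androgen-regulated long noncoding RNA, differed by 1.45 (adjusted p = 0.00142) and by 1.53 (adjusted p = 0.000413) with the GC trend removed. TBX15 lost its call without any 1 library of control FM, KO EtOH or KO FM (range 1.69 to 2.19), ACTA2 without replicate 2 of KO EtOH or any 1 library of control FM or KO FM (range 1.33 to 1.97), NRGN without replicate 2 of control FM or any 1 library of KO EtOH or KO FM (range 1.155 to 1.71), and PART1 without replicate 1 of KO EtOH, replicate 2 of KO FM or any 1 library of control FM (range 1.26 to 1.62). Without replicate 2 of control EtOH DESeq2 gave these 4 genes no adjusted p. MT2A lost its call without replicate 2 of control FM (range 0.97 to 1.82) and MYBPC1 without replicate 2 of KO EtOH (range 1.72 to 2.03).

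The most negative differences, which join rises that were smaller or absent in KO with falls that were steeper, were found in UGT2B11, COLCA1, RND3, TNFAIP3, ADGRG6, UGT2B28, PREX1, UGT2B15, CFAP69 and OPTN. COLCA1, a transmembrane protein named for colorectal cancer association, had 466 and 394 in control EtOH, 253 and 304 in control FM, 2337 and 2484.5 in KO EtOH, and 292.5 and 327 in KO FM. KO EtOH stood alone above the other groups, and the difference was -2.34 (standard error 0.22, adjusted p = 9.14e-22). RND3, a small GTPase-like protein that loosens the actin cytoskeleton, had 85.0 and 89.3 in control EtOH, 374 and 391.8 in control FM, 95.8 and 103 in KO EtOH, and 85.6 and 90.9 in KO FM. Here control FM stood alone above the other 3 groups, which lay between 85.0 and 103, and the difference was -2.31 (standard error 0.32, adjusted p = 1.24e-09). OPTN, an autophagy receptor, had 254 and 216 in control EtOH, 88.7 and 106 in control FM, 693 and 593 in KO EtOH, and 91.1 and 117 in KO FM and a difference of -1.365 (standard error 0.30, adjusted p = 0.00188), again with KO EtOH as the highest group. ADGRG6, an adhesion G protein-coupled receptor, had 111 and 86.3 in control EtOH, 152.5 and 178 in control FM, 99.1 and 105 in KO EtOH, and 57.4 and 52.4 in KO FM and a difference of -1.64 (standard error 0.38, adjusted p = 0.00474). PREX1, a Rac activator, differed by -1.56 (adjusted p = 0.0339) and CFAP69, a cilium protein, by -1.40 (adjusted p = 1.8e-05). OPTN lost its call without replicate 2 of control FM, replicate 1 of KO EtOH or replicate 1 of KO FM (range -1.55 to -1.19), ADGRG6 without any 1 library of control FM, KO EtOH or KO FM (range -1.83 to -1.46), and PREX1 without any 1 library of control FM, KO EtOH or KO FM (range -1.91 to -1.31). For RND3, ADGRG6 and PREX1 no adjusted p was given without replicate 2 of control EtOH, where the differences were -2.34, -1.46 and -1.45.

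To see in which condition the lines parted, KO was set against control in EtOH and in FM. Over all genes 787 differed in EtOH (4.94% of those tested) and 1105 in FM (7.87%). Among the 76 genes of larger response, 35 passed in EtOH only, 28 in FM only, 7 in both and 6 in neither, with median differences of -0.59 in EtOH and 0.49 in FM. Among the 69 of smaller response, 30 passed in EtOH only, 19 in FM only, 6 in both and 14 in neither, with medians of 0.58 and -0.36. TRPM8 (-0.04 in EtOH and 1.18 in FM), CHRNA2 (-0.02 in EtOH and 1.42 in FM) and KLK3 (0.29 in EtOH and 1.07 in FM) parted in FM. MYBL2 (-0.87 in EtOH and 0.00 in FM) and ELOVL2 (-1.175 in EtOH and -0.20 in FM) parted in EtOH, with lower levels in KO, and COLCA1 (2.49 in EtOH and 0.15 in FM) and OPTN (1.45 in EtOH and 0.09 in FM) with higher ones. ALDH1A3 (-0.63 in EtOH and 0.90 in FM) and TMPRSS2 (-0.59 in EtOH and 0.82 in FM) were lower in KO in EtOH and higher in FM.

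**Figure D5:**
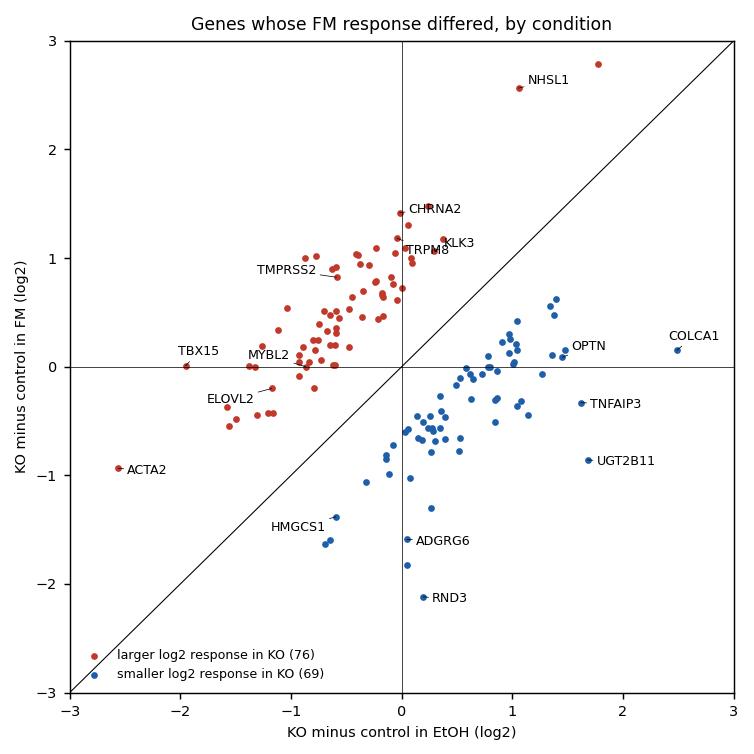
KO minus control in EtOH (x axis) and in FM (y axis), on the log2 scale, for the 76 genes of larger (red) and the 69 of smaller (blue) log2 FM response in KO; the diagonal marks equal differences. Genes near the horizontal zero line, such as MYBL2, TBX15 and COLCA1, parted in EtOH, and genes near the vertical zero line, such as CHRNA2, RND3 and ADGRG6, parted in FM.

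The remaining lists held no gene past the test with DESeq2 or with edgeR. They were ATF4 and amino acid stress (30 tested, 9 with an unadjusted DESeq2 p under 0.05), interferon and antigen presentation (19 and 3), p53 targets (27 and 6), hypoxia and glycolysis (29 and 6), cytosolic ribosomal proteins (59 and 13), nuclear-encoded respiratory chain (42 and 12), proteasome subunits (30 and 1), and autophagy and lysosome (32 and 5). Over all genes tested, 1841 of 12608 had an unadjusted DESeq2 p under 0.05. The differences of the 2 most abundant members of each of these lists ran from TP53INP1, a p53 target that drives cell death, at -0.42 to PHGDH, the first enzyme of serine synthesis, at 0.52. ATF4 itself was at 0.24 and GAPDH at -0.01. Of all 12608 genes tested 6559 had a difference above 0. The 59 ribosomal protein genes all did, with a median of 0.30. That median was 0.535 without replicate 1 of control EtOH and 0.03 without replicate 2, and for the 42 respiratory chain genes 0.61 and 0.05, so that both rested on which of these libraries was used.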

How the data were processed

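Poly(A) RNA of LNCaP control and Bag-1L KO cells was sequenced by the submitters (TruSeq stranded mRNA, HiSeq1500). Per their methods and processing notes, the authors used CASAVA 1.7, mapped reads to GRCh37 with TopHat2 2.0.11 and used HTSeq 0.5.3p3 to count reads in Ensembl genes, and the deposited values are raw counts per gene. The annotation release and the strand setting are not given in the sources used here. Summary lines of the counter and other entries that name no gene were left out.

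The 8 FM and EtOH samples, 2 per group by the labels, were fitted together with DESeq2 1.42.0 (R 4.3.3), after dropping genes with fewer than 10 counts in all. Differences are unshrunken log2 values, tested by a two-sided Wald test with Benjamini-Hochberg adjustment, and passed at an adjusted p of at most 0.05 and a fold of at least 1.5. An adjusted p that DESeq2 withheld was kept as missing and not counted as a lost call. The quasi-likelihood test of edgeR 4.0.16 was an alternative, as were other filters, scalings, blocks, trend corrections and samples. The GC trend was removed per library by a loess curve (span 0.5) over GC content, carried into the fit as an offset. GC content was the median over the annotated transcripts of a gene (GENCODE, GRCh37).

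Genes named were BAG1, the 10 largest differences in each direction among genes past the test with a symbol, an average of 100 or more normalized counts and 1 sign over all 16 replicate combinations, and from each of 19 gene lists and 6 marker lists up to 4 members past the test, or the 2 most abundant where none passed. A list of mitochondrially encoded genes was added after its values were seen. The lists and the comparison itself were chosen with earlier results of these data known. Of 686 list entries 681 matched a gene. A count of 0 allows up to 3 counts, for counting error only. Some genes are not reported here.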

Additional observations from a re-analysis of the deposited data

Results flagged for a closer look

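The FM response differed between control and Bag-1L KO cells in 145 genes, a difference between the 2 lines under the same contrast that was tested by the interaction of line and medium. Of these, 19 passed under all 19 alternatives run, and 32 passed with edgeR.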

How the results depend on the processing

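The 145 genes became 32 with edgeR, 37 with a replicate block within each line and 90 with the GC trend removed and a replicate block, and without 1 library they ranged from 24 to 2192, the latter without replicate 1 of control EtOH. In alternatives chosen after seeing the data, the GC trend removed without that library gave 1550 genes and without replicate 2 of control EtOH 115, and edgeR gave 3021 and 305. The control response (3819 genes) became 6122 and the KO response (3417) 5499 without a fold minimum, and they ranged from 2744 to 4597 and from 2686 to 3488 without 1 library. KO minus control in EtOH (787) was 241 with the block within each line, 1439 without a fold minimum and 393 to 1502 without 1 library. KO minus control in FM (1105) was 479 with that block, 671 with the GC trend removed, 585 with the block added, 669 with GC and length trends removed, 2407 without a fold minimum and 357 to 1294 without 1 library. The correlation with GC content (0.485) was -0.023, -0.024 and -0.061 in the 3 fits that removed trends, by construction, and 0.392 to 0.549 without 1 library, and that of KO minus control in EtOH (0.088) turned to -0.102 without replicate 1 of control EtOH. Apart from these, the cause was not tested. A replicate block common to all groups gave 99 genes, all among the 145. The deviations of same-numbered samples had a mean correlation of -0.102 (from -0.415 to 0.477, 1 of 6 pairs of groups above 0.1). With 2 samples per group this cannot tell whether same-numbered samples shared a preparation, and the labels give only a number. Of the 41 genes past the test that the naming rule gave, 0 reversed direction in any of the 19 alternatives. For the 8 fits without 1 library and the alternative without a fold minimum this was nearly fixed in advance. Every gene past the test had 1 sign over all 16 replicate combinations, and the latter reused the main fit. With 2 samples per group, the depth of 20826843 to 26510205 counts was not varied.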

Other observations

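The genes of this section were chosen after their values were seen. The 13 mitochondrially encoded protein genes all had a smaller log2 FM response in KO (median difference -0.81). Of these, 3 (23.08%) passed with DESeq2, 0 with edgeR and 9 at an unadjusted DESeq2 p under 0.05. Among all 12608 genes tested, 6049 had a smaller response in KO. With DESeq2 145 of them passed (1.15%), and 1841 had an unadjusted p under 0.05. The 13 genes all lie on the mitochondrial genome and are not independent observations. MT-ND1 and MT-ND6, which passed with MT-CYB, shared 22.1% and 17.9% of their 50-base words with transcripts of other genes, and MT-CYB 1.2%. MT-CYB, a subunit of complex III, had normalized counts of 50662 and 33029 in control EtOH, 31778 and 43482 in control FM, 50919 and 69673 in KO EtOH, and 26554 and 21134 in KO FM. Its replicates lay apart in each group, and the call (difference -1.19, DESeq2 adjusted p = 0.00763) was lost in 13 of 19 alternatives.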
